A study of Homo sapiens with 3 samples.

Results

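The BCL2 family sets the threshold for mitochondrial apoptosis, and 10 of its genes were compared by mRNA level between an osimertinib-sensitive lung cancer cell line and the resistant lines selected from it. The genes were BCL2L11, BBC3, PMAIP1 and BMF, which encode BH3-only proteins, BCL2, BCL2L1, BCL2A1 and MCL1, which encode prosurvival proteins, and BAX and BAK1, which encode the effectors. They were taken by gene symbol from the 43316 genes of the array, and all 10 were found, with 16 probes between them. H1975 is a lung adenocarcinoma cell line harboring mutated EGFR, and no drug selection is described for it. OR1 and OR2 are osimertinib-resistant lines derived from H1975, selected independently by osimertinib in rising doses of up to 2 μmol/L over 4 months, and both thus descend from a parent with mutated EGFR. The methods call OR1 and OR2 clones, and whether osimertinib was in the medium when RNA was taken is not given in the sources used here. Each line was measured once, on 1 array, and the 3 arrays lay on the same slide.

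In healthy cells the prosurvival proteins bind and restrain the effectors. BH3-only proteins are induced or released by stress and by loss of growth factor signaling, and they neutralize the prosurvival proteins or engage the effectors directly. Once freed, BAX and BAK permeabilize the outer mitochondrial membrane, and cytochrome c then assembles with APAF1 to activate caspase-9. In lung cancer cells that depend on mutated EGFR, accumulation of BIM, the product of BCL2L11, is a known step in killing by EGFR inhibitors.

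BCL2 was the member that stood apart. Its mRNA was not detected above background in H1975 and was detected in both OR lines, at a level at least 6.15-fold higher in OR1 and 4.20-fold higher in OR2. BMF was lower in OR2 than in either of the other lines, with a ratio of 0.444 to H1975. The other 8 members stayed between ratios of 0.5 and 2 in both OR lines. Among those 8, BAK1 and BCL2L1 had ratios above 1 in both OR lines. PMAIP1, BCL2A1, MCL1, BBC3, BCL2L11 and BAX had ratios below 1 in both. Of these, the ratios of BAX in both lines and of BBC3 and BCL2L11 in OR2 were within the technical SD of 1. For BCL2L11 in OR2 this held at its brightest probe only, and its other probes had ratios of 0.593 and 0.698.

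Scaled intensity below is a probe's background-corrected brightness, put on the scale of the H1975 array by matching the 75th percentile of each array, in arbitrary units. A ratio is the scaled intensity in an OR line divided by that in H1975. A ratio of at least 2 was counted as higher and one of at most 0.5 as lower, which are the limits of the study's methods. Where a line was not well above background by the scanner software's flag, it was set to the higher of its own value and the dimmest detected signal of that array, and the ratio is then a bound. No line had a second array, so the spread between cultures is unknown, no test was made and no p-value is given. The software's own error estimate gave the log2 ratio of a bright probe such as BAK1 an SD of 0.20, called the technical SD below. It was nearly the same for all bright member probes, the BAX probe with repeated spots included. It is thus not a spread measured between spots, and it does not include variation between cultures. Probes bind with different strengths, so levels were compared between lines and never between probes. RNA came from whole cultures, in which fewer expressing cells and less RNA per cell cannot be told apart.

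Of the 10 members, 1 was higher in OR1 (BCL2) and 0 were lower, while 9.17% of all genes detected in the comparison were higher and 9.58% were lower. In OR2, 1 member was higher (BCL2) and 1 was lower (BMF), against 7.72% and 8.7% of all genes. For a ratio of at least 2 in both OR lines the count was 1 (BCL2), with 5.09% among all genes, and for a ratio of at most 0.5 in both it was 0, with 6.32%. A single member is 10% of the 10, so these counts were near the shares of all genes. The median ratio of the 10 members was 0.852 in OR1 and 0.950 in OR2, and that of all genes was 1.03 and 0.961. OR1 and OR2 share the H1975 array, so a value that is off in H1975 moves both ratios together.

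**Figure D1:**
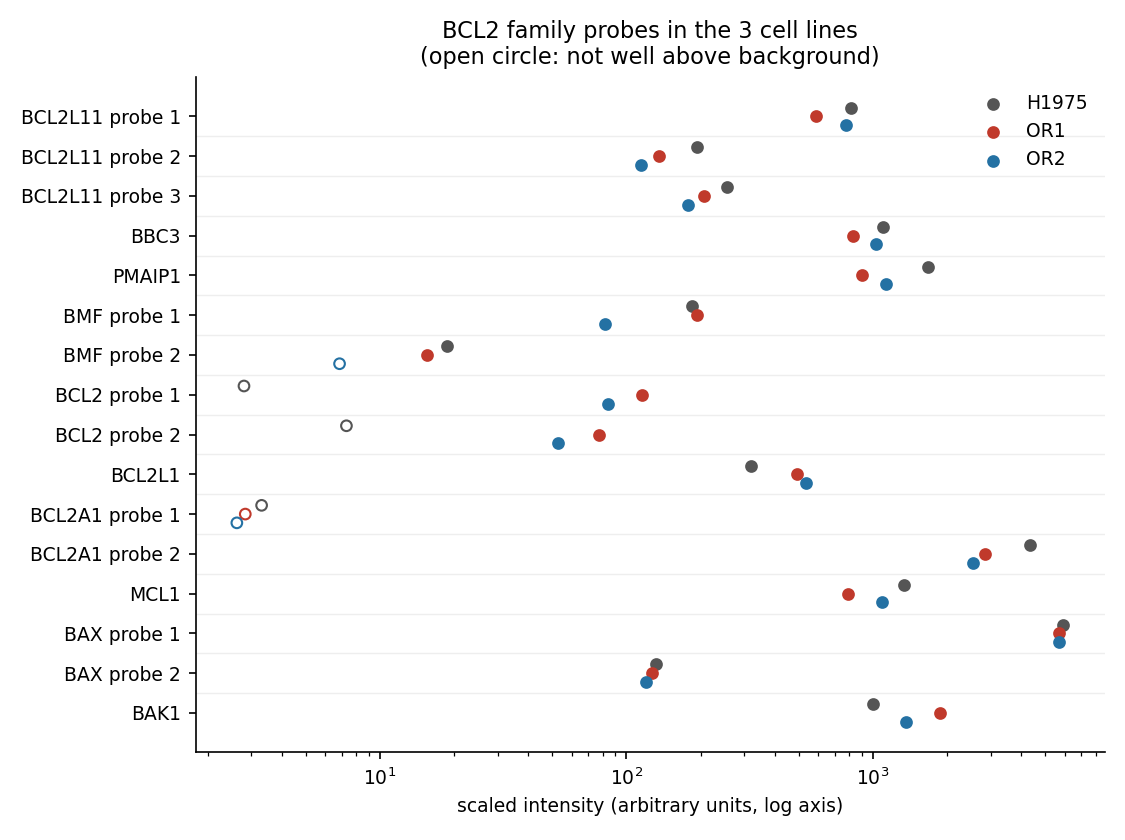
Scaled intensity (arbitrary units, log axis) of all 16 probes of the 10 members in H1975, OR1 and OR2, 1 point per array, with open circles for values not well above background. Both BCL2 probes are open in H1975 and filled in OR1 and OR2, from 52.7 to 115 (probe 2 is the BCL2 probe printed in the text), while the paired points of the BAX probes nearly coincide.

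The BH3-only genes had median ratios of 0.739 in OR1 and 0.797 in OR2, and 3 of the 4 were below 1 in both lines. BCL2L11 was read by 3 probes along chromosome 2 of hg19, the build of the probe positions. The brightest, at chr2:111925892-111925951 from base 4968 of transcript NM_138621, gave scaled intensities of 812, 585 and 778 in H1975, OR1 and OR2. OR1 was the low line at this probe, with a ratio of 0.721, and OR2, with 0.959, was within the technical SD of H1975. The probe at chr2:111886352-111886411, designed on NM_207002, read 193, 136 and 114 in H1975, OR1 and OR2. The remaining probe, at chr2:111878705-111878764 on the same transcript, read 255, 207 and 178 in H1975, OR1 and OR2. At these 2 probes OR2 was the lowest line, with ratios of 0.593 and 0.698, and OR1 had ratios of 0.705 and 0.812. The probes thus ordered the lines differently. The ratio of OR2 to OR1 was 1.33 at the brightest probe and 0.841 and 0.860 at the others. No probe reached a ratio of 0.5 in either line.

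PMAIP1 encodes NOXA, which preferentially binds MCL1 and BCL2A1. Its probe, at chr18:57570691-57570750 on NM_021127, read 1679, 901 and 1134 in H1975, OR1 and OR2. H1975 was the highest line. The ratio was 0.537 in OR1 (a log2 ratio of -0.90 with a technical SD of 0.20), the lowest of the 10 members there, and 0.675 in OR2. In OR1, 11.2% of all genes had a lower ratio than PMAIP1. The OR1 ratio passed the limit of 0.5 when the arrays were scaled by their median or not at all, and under scaling by spike-in controls it was 0.358. That scaling shifted the OR1 ratios of all genes by a median of -0.58 on the log2 scale, and it also took BCL2L11 in OR1 past the limit, at 0.482.

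BBC3 encodes PUMA, a target of p53 that binds every prosurvival member. Its probe, at chr19:47724174-47724233 on NM_014417, read 1094, 828 and 1029 in H1975, OR1 and OR2. OR1 was the low line with a ratio of 0.758, and OR2, at 0.941, differed from H1975 by less than the technical SD.

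BMF encodes a BH3-only protein that has been linked to the cytoskeleton and to loss of cell attachment. Its brighter probe, at chr15:40380450-40380509 on NM_001003940, read 184, 193 and 81.5 in H1975, OR1 and OR2. H1975 and OR1 were alike within the technical SD, with a ratio of 1.05 that fell to between 0.702 and 1 under 4 of 11 processing alternatives, and OR2 was apart from both. The ratio of OR2 was 0.444 to H1975 and 0.422 to OR1. BMF was the only member past a limit between the OR lines, where 1 of 10 was lower and 0 were higher, and 2.89% of all genes were lower in OR2 than in OR1 and 2.48% were higher. Only 1.75% of genes had a ratio of OR2 to OR1 lower than that of BMF. The second BMF probe, at chr15:40383984-40384043, was dim. It read 18.7 in H1975 and 15.5 in OR1, and in OR2, at 6.86, it was not well above background. Its ratio was 0.827 in OR1 and at most 0.656 in OR2, a bound that lies in the same direction without reaching 0.5. The OR2 ratio of BMF was 0.576 with normexp, another background correction that adds an offset of 50, and 0.539 as the median over its probes, both short of the limit. Under spike-in scaling the ratio of OR2 to OR1 was 0.658 for BMF, also short of it. With that scaling MCL1, at 2.15, and BCL2L11, at 2.07, were past 2 between the OR lines.

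**Figure D2:**
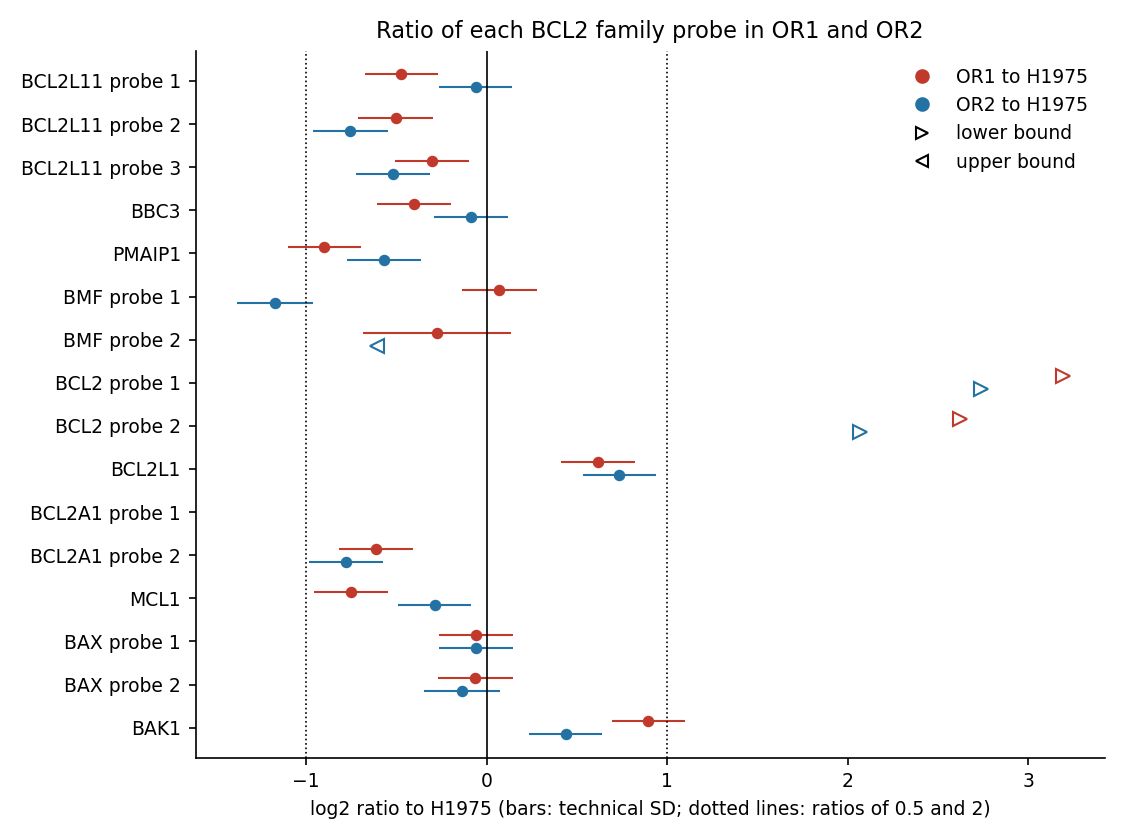
Log2 ratio of each member probe in OR1 and OR2 to H1975, with bars for the technical SD of the scanner software, triangles for bounds and dotted lines at ratios of 0.5 and 2. The 4 triangles of BCL2 lie beyond the upper line, OR2 at the brighter BMF probe lies beyond the lower one, and BCL2A1 probe 1 has no ratio because it was below background in every line.

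BCL2, the founding prosurvival member and the target of venetoclax, was read by 2 probes lying 194618 bases apart on chromosome 18. The probe that stood for the gene is shown because it has the ratios furthest from 1 among the probes that stand for the 10 members, and it is 5′ to 3′ on the minus strand at chr18:60985401-60985460, from base 932 of NM_000657.
BCL2, NM_000657 probe: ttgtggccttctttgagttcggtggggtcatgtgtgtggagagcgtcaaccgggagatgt
This probe read 77.3 in OR1, 52.7 in OR2 and 7.31 in H1975, which did not clear background. The second probe, at chr18:60790723-60790782 from base 6288 of NM_000633, read 115 in OR1, 84.1 in OR2 and 2.81 in H1975, again under the detection flag. Both probes put H1975 lowest and OR1 highest. The lower bounds of the ratio were 6.15 in OR1 and 4.20 in OR2 at the first probe, and 9.16 and 6.69 at the second. OR2 had a ratio of 0.682 to OR1 at the first probe and 0.730 at the second. The signals in the OR lines were modest against a dimmest detected signal of 12.6 on the H1975 array. With normexp the bounds were 1.91 and 1.52, under the limit of 2.

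BCL2L1 encodes BCL-XL from its long splice form. Its probe, at chr20:30253324-30253383 on NM_138578, read 321, 493 and 535 in H1975, OR1 and OR2. H1975 was the lowest line, and the OR lines, with a ratio of OR2 to OR1 of 1.08, were alike within the technical SD. The ratios were 1.54 in OR1 and 1.67 in OR2, and under spike-in scaling the OR1 ratio was 1.03. Of all genes, 18.8% and 12.9% had a higher ratio.

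MCL1 encodes a short-lived prosurvival protein that is degraded within hours when its synthesis stops. Its probe, at chr1:150547622-150547681 on NM_021960, read 1335, 793 and 1093 in H1975, OR1 and OR2. OR1 was the low line, with a ratio of 0.594, and OR2 lay between at 0.819. Under spike-in scaling the OR1 ratio was 0.397, past the limit. MCL1 differed most between the OR lines in the upward direction, with a ratio of OR2 to OR1 of 1.38.

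BCL2A1 encodes BFL-1, a prosurvival protein best known as a target of NF-κB in leukocytes. It was read by 2 probes that disagreed, and both are shown so that their targets can be compared. They are 5′ to 3′ on the minus strand, at chr15:80263136-80263195 from base 448 and at chr15:80253220-80253252 from base 664 of NM_004049. The position given for the second probe spans 33 bases of the genome while the probe itself has 60.
BCL2A1, base 448 probe: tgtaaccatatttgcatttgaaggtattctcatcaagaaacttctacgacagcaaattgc
BCL2A1, base 664 probe: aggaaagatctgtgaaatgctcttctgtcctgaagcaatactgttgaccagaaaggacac
At the base 448 probe the lines read 3.31, 2.84 and 2.63 in H1975, OR1 and OR2, none of them well above background, so no ratio was computed. At the base 664 probe they read 4351, 2847 and 2539.5 in H1975, OR1 and OR2. H1975 was the highest line there, with ratios of 0.654 in OR1, which was 0.437 under spike-in scaling, and 0.584 in OR2. The ratios of BCL2A1 rest on the bright probe alone, and the reason for the disagreement was not tested. Of the 4 RefSeq mRNA accessions that the array lists for the bright probe, 1 was found in the RefSeq table used for names. Among leukocyte markers, CD3E, CD2, MS4A1 and ITGAM were not well above background in any line. The 4 others of the 8 found on the array cleared it in every line, and the summed scaled intensity of the list was 3228, 2065 and 3116 in H1975, OR1 and OR2. Its genes went different ways, with CSF1R at 2633, 655 and 986 and CD14 at 264, 1123 and 1732 in the same order.

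By the probes that stood for them, the prosurvival genes divided evenly. BCL2A1 is placed by its bright probe alone, since its other probe was undetected in every line. BCL2L1 in OR1, at 1.03 under spike-in scaling, was then within the technical SD of 1. BCL2 and BCL2L1 lay above the H1975 level in both OR lines, and MCL1 and BCL2A1 lay below it, under every alternative that gave a ratio. The median ratio of the 4 was 1.003 in OR1 and 1.17 in OR2.

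BAX had the ratio closest to 1 of the 10 members in both OR lines, by margins within the technical SD. BMF in OR1, at 1.05, and BCL2L11 in OR2, at 0.959, were nearly as close. The bright BAX probe, at chr19:49464904-49464963 on NM_138764, was spotted 10 times on each array. The spots had an SD of 0.039, 0.032 and 0.041 in H1975, OR1 and OR2 on the log2 scale. It read 5926, 5685 and 5694 in H1975, OR1 and OR2, with ratios of 0.959 and 0.961. The second probe, at chr19:49464454-49464513 on NM_004324, read 132, 126 and 120.2 in H1975, OR1 and OR2, with ratios of 0.958 and 0.911. At both probes H1975 was highest by a margin within the technical SD of a ratio. The OR2 ratio of the bright probe rose to 1.10 with the authors' normalized intensities and was above 1 under 4 of 11 alternatives.

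BAK1 encodes the effector that resides on mitochondria and is held by MCL1 and BCL-XL. Its probe, at chr6:33540585-33540644 on NM_001188, read 1003, 1868 and 1359 in H1975, OR1 and OR2. All lines were apart by more than the technical SD, with OR1 highest. The ratio was 1.86 in OR1 and 1.35 in OR2, and 11.1% and 22.7% of all genes had a higher ratio. OR2 had a ratio of 0.728 to OR1.

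**Figure D3:**
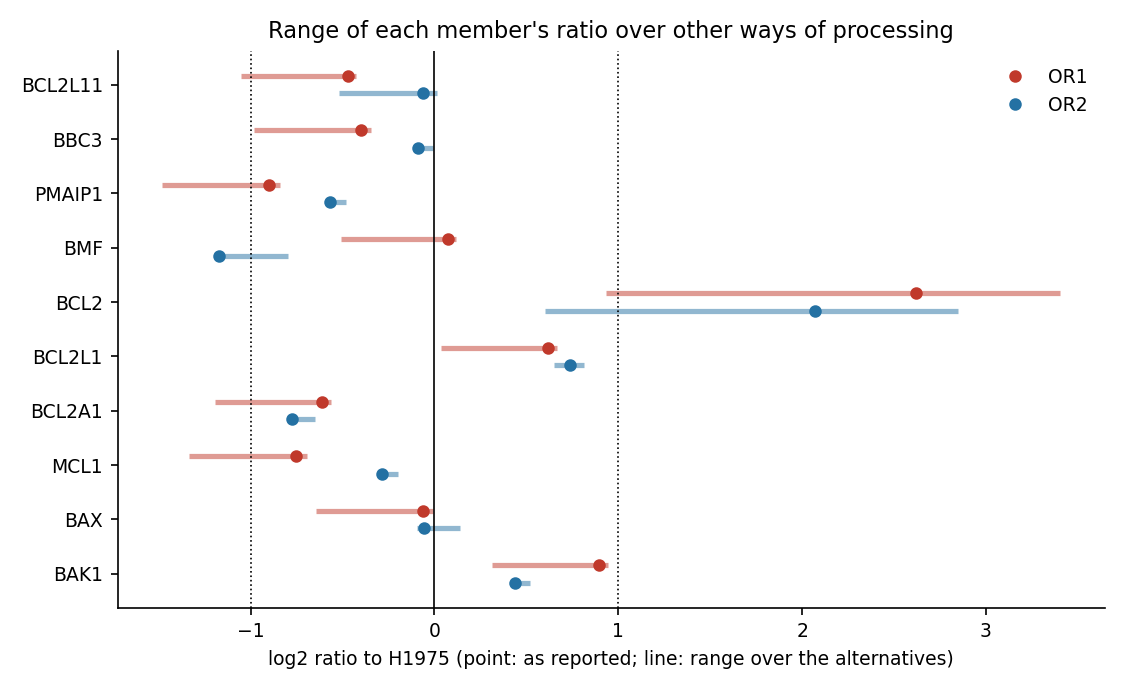
Log2 ratio of each member in OR1 and OR2 to H1975 (points, values as reported) with the range over the processing alternatives (lines), and dotted lines at ratios of 0.5 and 2. The lines of BCL2, BCL2L1 and BAK1 stay above 0 in both OR lines, those of BBC3, PMAIP1, BCL2A1 and MCL1 stay below it, and that of BCL2 crosses the upper limit.

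Direction was the same in both OR lines under all alternatives that gave a ratio for 7 of the 10 members. It was above 1 for 3 (BCL2, BCL2L1 and BAK1) and below 1 for 4 (BBC3, PMAIP1, BCL2A1 and MCL1). The 3 others, BCL2L11, BMF and BAX, changed side of 1 in at least 1 line. The members were also set beside the genes around them on the chromosome. For each member the 20 nearest detected genes, 10 on each side, were taken. Around BCL2, from 57.4 to 61.6 Mb of chromosome 18, their median ratio was 1.09 in OR1 and 0.934 in OR2, with maxima of 3.12 and 2.67, so BCL2 lay above all of its neighbors. Around PMAIP1, 3.41 Mb from BCL2 on the same chromosome and with an overlapping window, the medians were 1.31 and 1.18. The maxima in that window were 22.4 in OR1 and 9.51 in OR2, above the bounds of BCL2. In OR1 PMAIP1 lay below its lowest neighbor, 0.651. BBC3, at 0.758 in OR1, also lay below its lowest neighbor there, 0.776, but by a margin within the technical SD. The median of its neighbors in OR1 was 1.25. Around BCL2A1 the neighbors were themselves low, with medians of 0.783 in OR1 and 0.658 in OR2, near the ratios of BCL2A1. The neighbors of BAK1 had medians of 1.38 and 1.15 against its 1.86 and 1.35, and those of BCL2L1 had 1.22 and 1.02. The BMF neighbors had medians of 1.30 in OR1 and 0.964 in OR2, against 0.444 for BMF in OR2. For the remaining members, BCL2L11, MCL1 and BAX, the neighbor medians lay between 0.898 and 1.37.

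**Figure D4:**
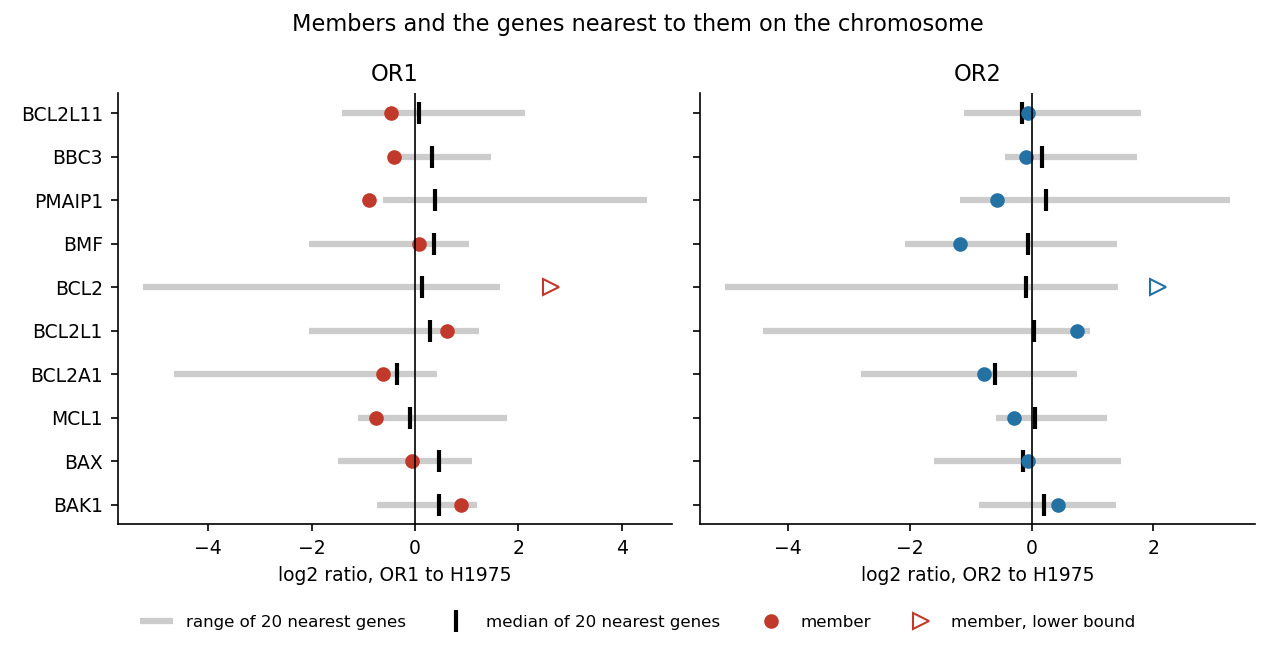
Log2 ratio of each member (points, triangles for bounds) in OR1 and OR2 to H1975 beside its 20 nearest detected genes on the chromosome, with grey bars for their range and black ticks for their median. BCL2 lies beyond the top of its bar in both panels, and BCL2A1 lies close to its tick.

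A list of 13 further BCL2 family genes held 12 that were detected. Of these, 2 were higher in both OR lines (HRK and BCL2L10) and 1 was lower in both (BIK), against 5.09% and 6.32% of all genes. The others were past no limit in either line as reported. HRK, which encodes the BH3-only protein Harakiri, read 58.5, 329.7 and 299 in H1975, OR1 and OR2 at NM_003806, with ratios of 5.64 and 5.11. At its second probe H1975 was under the detection flag, and the lower bounds were 10.7 in OR1 and 13.5 in OR2. BCL2L10, a prosurvival relative of BCL2, read 33.7, 87.3 and 133 in H1975, OR1 and OR2, with ratios of 2.59 and 3.94. BIK, another BH3-only gene, read 633, 52.9 and 99.8 in H1975, OR1 and OR2. Its ratios of 0.0836 and 0.158 were the lowest of any BCL2 family gene measured. BIK stayed below 0.5 and HRK above 2 in both lines under every alternative. BCL2L10 was under 2 in OR1 with spike-in scaling, at 1.73, and in both lines with normexp, at 1.57 and 1.99.

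BAD and BID, BH3-only genes controlled by phosphorylation and by cleavage, did not pass the limit as reported. BAD read 1646, 3202 and 2164 in H1975, OR1 and OR2, with ratios of 1.94 and 1.31. When the 75th percentile was taken over detected probes only, the OR1 ratio of BAD was 2.01, past the limit. BID read 1951, 3390.2 and 3285 in H1975, OR1 and OR2, with ratios of 1.74 and 1.68. BCL2L2, which encodes the prosurvival protein BCL-W, had ratios of 0.903 and 0.924. BOK, an effector relative, read 1581, 1857 and 1255 in H1975, OR1 and OR2, with ratios of 1.17 and 0.794. BCL2L14 was not well above background in any line. The median ratio of the list was 1.07 in OR1 and 0.924 in OR2.

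Downstream of mitochondria, 18 genes of the apoptosome, caspases and their inhibitors were examined, and 1 was higher and 0 were lower in both lines, against 5.09% and 6.32% of all genes. BIRC3, which encodes the NF-κB-induced inhibitor cIAP2, read 61.0 in OR1, 53.8 in OR2 and 13.8 in H1975, which did not clear background, so its ratios were at least 4.44 and 3.91. With normexp these bounds were 1.67 and 1.51. CASP9, the initiator caspase of the apoptosome, read 188, 432 and 353 in H1975, OR1 and OR2. It passed the limit in OR1, at 2.30, and not in OR2, at 1.88, and the OR1 ratio was under the limit with spike-in scaling, at 1.54, and with normexp, at 1.98. BIRC5, which encodes survivin and is expressed mainly in dividing cells, had ratios of 0.608 in OR1 and 0.439 in OR2, the latter past the limit. Its OR2 ratio was 0.512 with quantile normalization or with the authors' normalized intensities, short of the limit, and under spike-in scaling its OR1 ratio was 0.406, past it. CASP6, named after its value was seen, was lower in OR1 at 0.458 and had a ratio of 0.832 in OR2. XIAP, an inhibitor of caspases, had ratios of 0.595 and 0.709, and APAF1 had 1.07 and 1.19. The median ratio of the list was 0.956 in OR1 and 0.855 in OR2.

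A further list held 17 genes that regulate the transcription or turnover of BCL2 family members. In both lines 0 were higher and 0 were lower, against 5.09% and 6.32% of all genes, and 1 was higher in both with quantile normalization or with the authors' normalized intensities. In OR1, 2 were higher and 1 was lower, against 9.17% and 9.58% of all genes. In OR2, 1 was higher and 0 were lower, against 7.72% and 8.7%. The regulators past a limit in OR1, named after their values were seen, were MYC at 2.41, FBXW7 at 2.24 and DDIT3 at 0.474. In OR2 it was BTRC, at 2.05, also named after its value was seen. In the other OR line MYC had a ratio of 1.89, FBXW7 1.41, DDIT3 0.694 and BTRC 1.43. DDIT3 encodes CHOP, a stress-induced factor, and FBXW7 and BTRC encode substrate receptors of ubiquitin ligases. The median ratio of the list was 1.12 in OR1 and 1.06 in OR2. In none of the 3 lists was a gene past a limit between OR2 and OR1 as reported. BIK came closest, with a ratio of OR2 to OR1 of 1.89. Under spike-in scaling its ratios to H1975 were 0.0558 in OR1 and 0.164 in OR2, which puts it past 2 between the OR lines. It was also past 2 there with median scaling or no scaling.

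On each array 45.6% to 45.9% of the 58200 probes were well above background and 0 spots were saturated, and the 75th percentile of the unscaled intensity was 157, 138 and 162 in H1975, OR1 and OR2. Of 11 lung epithelial markers, 9 cleared background in every line, and the surfactant genes SFTPB and SFTPA1 in none. The summed scaled intensity of that list was 388071, 169441 and 169792 in H1975, OR1 and OR2. The genes of the list moved unequally and not all in 1 direction. In the same order, KRT7 read 131484, 21516 and 22335, EPCAM 18987, 702 and 1377 and KRT8 9534, 10676.5 and 9187. KRT18, KRT19 and MUC1 were also lower in both OR lines. Of the detected genes only SFTPC was higher in both, at 24.02, 90.8 and 117.1 in H1975, OR1 and OR2. NKX2-1, at 832, 209.7 and 1136, and NAPSA, at 37.2, 28.6 and 58.2, were lower in OR1 and higher in OR2. Fibroblast markers were above background for 3 of 8 genes in H1975, 3 in OR1 and 1 in OR2, with summed scaled intensities of 692, 787 and 107.3. The part of these marker shifts in the member ratios was not tested.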

How the data were processed

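The authors labeled complementary RNA of each line in 1 color and hybridized it to an Agilent SuperPrint G3 Human array, 1 array per line. The deposited scanner files hold, for each spot, an intensity that Agilent Feature Extraction corrected for background but did not scale between arrays. The file headers give version 10.7.1.1 and the submitters' processing notes 9.5.1.1. The authors' second table holds normalized intensities on a linear scale. After log2 was taken, they differed from quantile-normalized scanner values by a median of 0.0013 on the log2 scale.

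Control spots and outlier spots (45 to 61 per array) were left out, repeated spots were averaged on the log2 scale, and the 75th percentile of each array was subtracted. The probe with the highest mean over the 3 arrays stood for a gene in counts. Calls used ratios of 2 and 0.5. Background counts covered genes well above background in at least 1 line of the comparison (21868 in OR1 and 21688 in OR2). Of these, 21863 and 21685 had a ratio or bound. Shares for both OR lines covered the 22417 genes detected in either comparison. No column was left unmapped. The number of arrays limits the precision. Counting was checked on simulated data in which only genes far above background in H1975 were changed. Ratios that are bounds, as for BCL2, were thus not checked by it.

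The members and lists were chosen with earlier results of these data known. Named genes are all members, list genes past a limit in both OR lines or between them, and 10 list genes fixed by name, of which not all are reported here. Probe positions are those of the files (hg19). Exon and UTR annotation of that build was not used here. Of the 16 member probes, 16 had an accession with the same symbol in RefSeq. Scaling, background correction, filters, outlier spots, probe choice, source of values and the ratio were varied in 13 alternatives. Python 3.11.15, numpy 2.4.6, pandas 2.3.3, R 4.3.3 and limma 3.58.1 were used.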

Additional observations from a re-analysis of the deposited data

Results flagged for a closer look

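BOK lay on opposite sides of the H1975 level in the OR lines. OR1 had a ratio of 1.17 and OR2 one of 0.794. The difference was not tested, since each line has 1 array, and both ratios share the H1975 array. Under spike-in scaling the OR1 ratio was 0.784, on the same side as OR2.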

How the results depend on the processing

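With 1 array per line, no replicate could be left out, and a slide block was not run because all arrays lay on 1 slide. No paired analysis was possible because each line has 1 array. Of 327 member ratios recomputed, 288 moved by less than the technical SD, 39 moved by more and 0 reversed. The 0 reversed concerns ratios past a limit. Among the others, BCL2L11 in OR2, BMF in OR1, BAX in OR2 and the OR2 to OR1 ratios of BCL2L11, BCL2, BCL2A1, BAX and BAK1 changed side of 1 under at least 1 alternative. Spike-in scaling, which rests on 7 probes, moved OR1 ratios by a median of -0.58 on the log2 scale over all genes. The same shift was -0.19 without scaling and -0.11 with median scaling. The cause was not tested.

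As reported, members higher numbered 1 in OR1, 1 in OR2 and 1 in both, and members lower 0, 1 and 0. Between OR2 and OR1, 0 were higher and 1 was lower. Normexp took the counts of higher members to 0 in OR1, OR2 and both, and of lower members to 0 in OR2 and between OR2 and OR1. Requiring all 3 arrays to be well above background left no ratio for BCL2 and took the higher counts to 0 in OR1, OR2 and both. In OR1, lower members numbered 1 (PMAIP1) with median scaling or no scaling and 4 with spike-in scaling (BCL2L11, PMAIP1, BCL2A1 and MCL1). Spike-in scaling also gave 2 higher and 0 lower between OR2 and OR1. The median over probes, and a ratio of 4, each gave 0 lower in OR2 and 0 lower between OR2 and OR1. A ratio of 1.5 gave 3 higher and 3 lower in OR1, 2 and 2 in OR2, and 2 higher and 1 lower in both. Without the background filter the BCL2 ratio was 10.6 in OR1 and 7.21 in OR2. Of the 78 list counts in both lines, 66 stayed within 1.5 times. The further BCL2 family had 1 higher with spike-in scaling, normexp or a ratio of 4. The caspase list had 0 higher with normexp, the filter on all arrays or a ratio of 4, 1 lower with spike-in scaling, and 2 higher and 3 lower at a ratio of 1.5. The regulators had 1 higher with quantile normalization or the authors' values and 2 at a ratio of 1.5.

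Of all genes, 2006 were higher and 2094 lower in OR1, 1675 and 1886 in OR2, 531 and 619 between OR2 and OR1, and 1141 and 1417 in both. Counts that moved by over 1.5 times were 793 and 5402 in OR1 with spike-in scaling, with 3710.0 and 195 between OR2 and OR1 and 605 higher in both. Normexp gave 780.0 and 1123 in OR1, 665 and 912 in OR2, 108 and 144 between them, and 458 and 701 in both. No background filter gave 4558 and 3677, 3687 and 3743, 2063 and 2957, and 2057 and 2437 in the same order. The filter on all arrays gave 1245 lower in OR2, 347 and 316 between OR2 and OR1, and 873 lower in both. No scaling gave 1073 and 389 between OR2 and OR1. A ratio of 1.5 gave 4423 and 4079, 3734 and 4357, 1869 and 2400.0, and 2573 and 2957. A ratio of 4 gave 464 and 607, 381 and 518, 44 and 111, and 265 and 422.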
